A study of Mus musculus with 2 samples.

Results

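Heat shock proteins and cytosolic chaperones were followed through an Ago2 RNA immunoprecipitation of TM4 cells, a mouse Sertoli cell line. The genes were taken by symbol: the J-domain families Dnaja, Dnajb and Dnajc, every symbol starting Hspa, Hspb, Hspd, Hspe, Hsph or Hsp90, and Cct2 to Cct8 with their relatives. Hspa5, Hsp90b1, Dnajb9, Dnajc3 and Dnajb11, chaperones of the endoplasmic reticulum that match these patterns, were left out, while other J proteins of that compartment were kept. This left 78 genes of the 22609 in the tables, and 66 of them had at least 20 reads over the pair of libraries.

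TM4 cells were transfected with a miR-471-5p mimic (mimic library) or with a scramble control (scramble library), and RNA bound by Ago2, the protein that carries miRNAs to their target mRNAs, was precipitated with an Ago2 antibody 48 h later and sequenced. The study made this comparison to find mRNAs targeted by miR-471-5p in Sertoli cells, the cells that nurse developing germ cells. There was 1 library in each group, so no difference has a replicate check, no p-value is given, and each 95% interval covers the counting of reads only. No input or total RNA library was analysed here, so a change in the amount of an mRNA, a change in its binding to Ago2 and a change in the number of cells cannot be told apart.

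The libraries held 18628310 (mimic) and 18717225 (scramble) reads on genes, and their scaling factors were 1.0026 and 0.9974, so the raw counts can be compared almost directly. Of 12 listed Sertoli cell markers 11 were in the tables and 5 passed the read limit, with 107 and 92.1 CPM summed over the list. Sox9 (1228 and 1070 reads), Gata4 (341 and 365), Clu (217 and 163), Wt1 (73 and 35, log2 ratio 1.06) and Inha (122 and 80, 0.61) were present. By contrast, Fshr had 0 reads in either library and Amh had 5 in each. Of the 5 tested markers, Wt1 and Inha were higher by 1.5-fold in the mimic library (background over all tested genes 10.3%), too few to set against that share. With the trend with transcript length and GC content removed, Wt1 stood at 1.03 and Inha at 0.27, which no longer passed 1.5-fold. The smooth muscle actin gene Acta2, a marker of peritubular and fibroblast-like cells, had 73076 mimic and 101778 scramble reads. The other listed markers of these cells were low, Myh11 with 6 and 6 reads and Cnn1 with 11 and 17. Summed over each list, germ cell markers stood at 6.75 and 7.61 CPM (counts scaled by library size), Leydig cell markers at 4.5 and 4.71, and macrophage markers at 1.39 and 1.82, with Ptprc at 0 in each library. The germ cell marker Ddx4 had 46 and 74 reads (log2 ratio −0.69). The other tested germ cell markers lay above 0 with intervals that included 0. These were Sycp3 with 58 and 48 reads (0.27) and Prm1 with 12 and 9 (0.41). The part of these cell types in the chaperone values was not tested.

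Chaperones bind unfolded proteins and help them fold, refold or reach another machine. Hsp70 proteins work in cycles of ATP hydrolysis that are started by J-domain proteins and reset by nucleotide exchange factors such as the Hsp110 proteins. Hsp90 acts later on kinases and steroid receptors, the ring-shaped chaperonin CCT folds actin and tubulin inside its cavity, and small heat shock proteins hold unfolded proteins without ATP. Heat shock factors switch on many of these genes under stress. Several Hsp70 and J-domain genes are known for their expression in male germ cells, among them Hspa1l, Hspa2 and Dnajb3.

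The sequence that the experiment turns on is the mature miR-471-5p, encoded on the minus strand of chrX:66792634-66792655 (RefSeq, GRCm38.p6). It is shown with its seed, bases 2 to 8, in capitals.
miR-471-5p: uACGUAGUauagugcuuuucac

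An mRNA pairs with the whole seed where it reads ACTACGT. Among the chaperone genes this match was found in the coding region of Dnajb12 (exon 7 of 9), Dnajc16 (exon 4 of 15) and Dnajc22 (exon 2 of 3), and in the 3′-UTR of Dnajb14 and Dnajc18. The sites of Dnajb12, Dnajc16, Dnajc22 and Dnajb14 are shown because they are places where the mimic's seed could pair with these mRNAs, with the match in capitals and positions on GRCm38.
Dnajb12, chr10:59895627-59895655, plus strand: gaacgtcgcctACTACGTggcagacacct
Dnajc16, chr4:141782887-141782915, minus strand: gcacttctcacACTACGTgaatgaagtgc
Dnajc22, chr15:99101550-99101578, plus strand: tgccaccattaACTACGTggcagaaaccc
Dnajb14, chr3:137911988-137912016, plus strand: tctccctggtgACTACGTgccattttttt

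None of these genes with enough reads was higher in the mimic library by 1.5-fold (background 10.3%), and they are too few to set against that share. Dnajb12, a J-domain protein of the endoplasmic reticulum membrane, had 771 mimic and 844 scramble reads, a log2 ratio of −0.13 (−0.27 to 0.01). Dnajc16 had 214 and 317 reads (log2 ratio −0.57), Dnajb14 had 81 and 100 (−0.30) and Dnajc18 had 924 and 832 (0.15). Dnajc22 had 0 and 2 reads, too few to compare. A whole-seed match stood in the 3′-UTR of 2 of 64 tested chaperone genes with a 3′-UTR (3.12%), against 168 of 11605 tested genes (1.45%). In coding regions the counts were 2 of 65 (3.08%) and 511 of 11769 (4.34%).

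A shorter match, CTACGT, lay near the start of the coding region of 4 Hsp70 genes, at base 120 in Hspa1a and Hspa1b, 126 in Hspa1l and 123 in Hspa2. The windows are shown because they place the match at a like position in these genes: over 28 bases that of Hspa1b did not differ from Hspa1a, that of Hspa1l differed at 1 base and that of Hspa2 at 2.
Hspa1a, chr17:34971790-34971817, minus strand: acgacccccagCTACGTggccttcaccg
Hspa1b, chr17:34958872-34958899, minus strand: acgacccccagCTACGTggccttcaccg
Hspa1l, chr17:34977101-34977128, plus strand: acgacccctagCTACGTggccttcaccg
Hspa2, chr12:76404645-76404672, plus strand: accacccccagCTACGTggccttcactg

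The shorter match was found in the coding region of 12 of 65 tested chaperone genes (18.5%) and of 16.3% of tested genes. In 3′-UTRs it was found in 4 of 64 (6.25%) and 5.93%. Hspa1b and Hspa2, both with this match, had log2 ratios of −0.50 and −0.21, and the ratios of Hspa1l (−0.13) and Hspa1a (13 reads in each library) had intervals that included 0.

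Across the 66 tested chaperone genes the mimic and scramble libraries were close. The median log2 ratio of mimic to scramble was −0.03, against −0.00063 over all 12186 tested genes, and the ratios ran from −0.73 for Hsph1 to 0.87 for Dnajc21 with an SD of 0.34. In all, 3 genes were higher by at least 1.5-fold with an interval off 0 (4.55%) and 3 were lower (4.55%). Among the higher ones is Hspb11, which was taken by its symbol but is a protein of cilia. The shares over all tested genes were 10.3% higher, 8.1% lower and 18.4% in either direction, and the gap between these shares and those of the chaperone genes was not tested. At the looser limit of an interval wholly above or below 0, 20 were above (30.3%, background 31.5%) and 21 below (31.8%, background 32.5%).

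**Figure D1:**
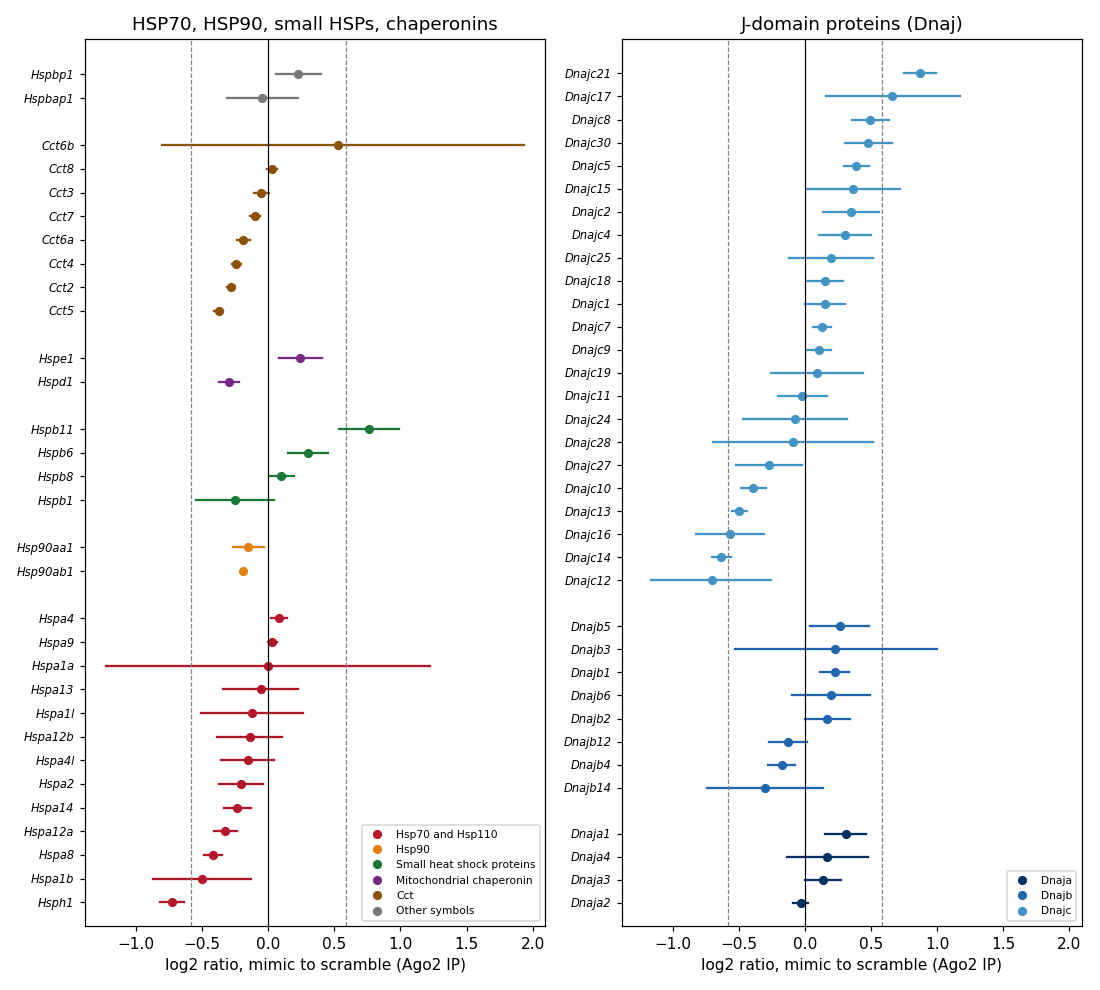
Log2 ratio of mimic to scramble for each tested chaperone gene (points) with its exact 95% counting interval (lines), grouped by family; dashed lines mark 1.5-fold. Dnajc21, Dnajc17 and Hspb11 lie right of the upper line and Hsph1, Dnajc14 and Dnajc12 left of the lower one, while most CCT genes and Hsp70 genes lie left of 0.

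The family medians lay on different sides of 0. Of the 13 Hsp70 and Hsp110 genes, 11 lay at or below 0, 6 of them with an interval below 0 (46.2%) and 1 with an interval above it, with a median of −0.16. Of 8 tested CCT genes, 6 lay below 0, 5 with the whole interval (62.5%), with a median of −0.15. The J-domain genes had 22 of 35 above 0, 14 with the whole interval (40%) against 7 below it (20%), and a median of 0.15, or 0.087 with the trend with transcript length and GC content removed. Over all tested genes 49.9% lay above 0 and 50.1% below, and the whole-interval shares were 31.5% above and 32.5% below. Whether an interval excludes 0 depends on read depth as well as on the ratio. Cct7 (−0.10, 10238 and 10975 reads) had its whole interval below 0, whereas Hspa1l (−0.13, 111 and 121) did not. Whole-interval shares of families that differ in depth from all tested genes, such as CCT, are therefore not like for like. The summed reads of the CCT genes had a log2 ratio of −0.20 (−0.21 to −0.18), those of Hsp90 −0.19, and those of the Hsp70 and Hsp110 genes −0.12 (−0.15 to −0.10), whereas the summed J-domain reads stood at −0.04.

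**Figure D2:**
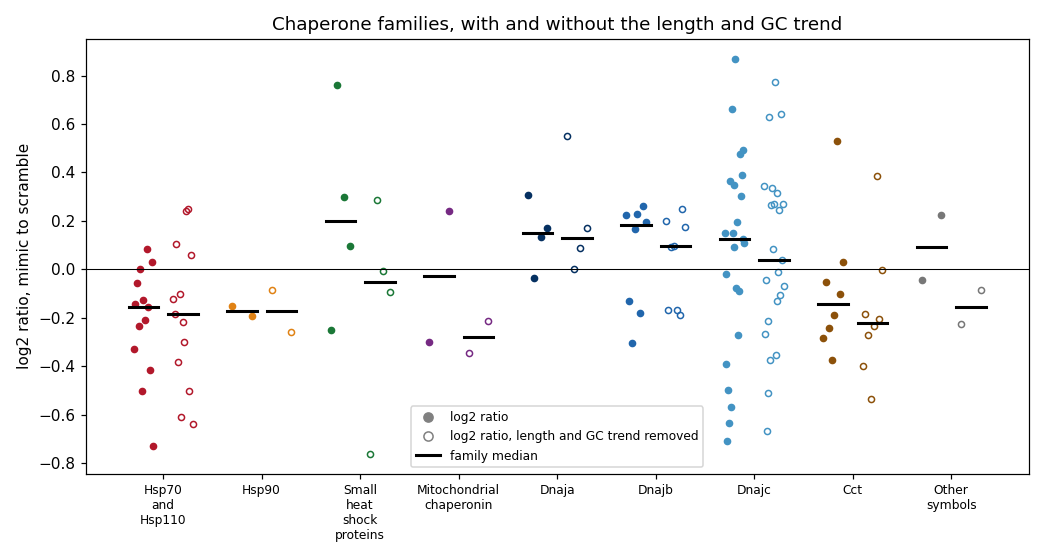
Log2 ratio of mimic to scramble for tested genes of each chaperone family, as measured (filled points) and after removal of the trend with transcript length and GC content (open points); black bars are family medians. The Hsp70, Hsp90 and CCT medians lie below 0 either way, the Dnaja, Dnajb and Dnajc medians above 0 either way, and the small heat shock protein median moves from 0.20 to −0.05.

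Transcript length moved with these ratios. Over 12077 tested genes the log2 ratio fell with log10 transcript length (Pearson r −0.37, Spearman rho −0.43), and over the 66 chaperone genes r was −0.38 and rho −0.32. These correlations are across genes of the same pair of libraries and are given as a description. A trend with length and GC content explained 14.6% of the variance over genes. With that trend removed, 3 chaperone genes remained past 1.5-fold in the same direction, Dnajc21 (0.77), Hsph1 (−0.64) and Dnajc12 (−0.67). Hspb11 (0.28), Dnajc17 (0.26) and Dnajc14 (−0.51) no longer passed, while Dnajc5 (0.64) and Dnajc15 (0.63) on the higher side and Hspb1 (−0.76) and Hspa1b (−0.61) on the lower side did. The share of all tested genes past the limit after trend removal is not given here, so these calls have no background beside them.

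**Figure D3:**
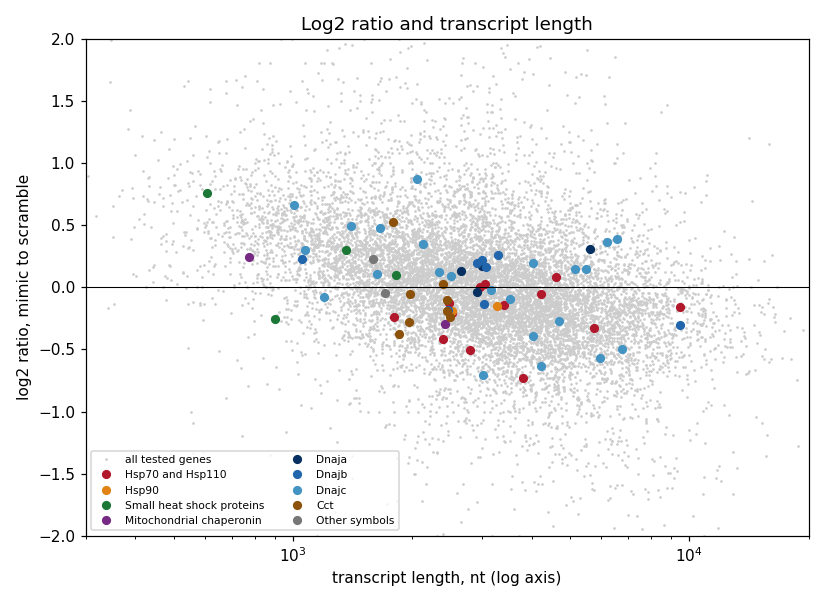
Log2 ratio of mimic to scramble against transcript length (log axis) for all tested genes (grey) and for the chaperone genes (coloured by family); genes outside the axis limits are not drawn. Ratios decline with length over all genes, and Dnajc21 lies above and Hsph1 below the bulk of genes of their length.

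Among the cytosolic Hsp70 proteins, the constitutive Hspa8, which also strips clathrin coats from vesicles, had 2933 mimic and 3916 scramble reads, a log2 ratio of −0.42 (−0.49 to −0.35). Of its 50-base stretches 74.8% also occur in transcripts of other genes. Reads aligned to more than one place are outside the gene counts, so its count may be too low. The other genes of this kind were low: the stress-inducible Hspa1a had 13 reads in each library, Hspa1b had 106 and 150, and the testis gene Hspa1l had 111 and 121. Between 62.3% (Hspa1b) and 71.4% (Hspa1l) of their stretches are shared too. Hspa2, needed for meiosis in spermatocytes, had 558 and 645 reads (−0.21, interval −0.38 to −0.04) and shares no stretch of this length.

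The mitochondrial Hsp70 gene Hspa9 had 13354 mimic and 13085 scramble reads, the most counted for any Hsp70 gene. It shares 4.1% of its 50-base stretches, against 74.8% for Hspa8. Its log2 ratio was 0.03 (−0.01 to 0.06) and exceeded that of Hspa8 by 0.45 (0.37 to 0.52). Hspa12a, an atypical family member, had 1922 and 2411 reads (−0.33), and Hspa14, which sits with a J protein on the ribosome, had 1445 and 1701 (−0.24).

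The Hsp110 genes split. Hsph1, the heat-inducible Hsp110 that exchanges nucleotide on Hsp70, had 1539 mimic and 2550 scramble reads, a log2 ratio of −0.73 (−0.82 to −0.64), the lowest of all chaperone genes. Its relative Hspa4 had 4579 and 4319 reads, a log2 ratio of 0.08 (0.02 to 0.14), and Hspa4l had 401 and 447 (−0.16, interval −0.36 to 0.04). The ratio of Hspa4 exceeded that of Hsph1 by 0.81 (0.70 to 0.92). Neither gene shares a 50-base stretch with another gene.

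Hsp90ab1, the constitutive cytosolic Hsp90, was the most abundant chaperone mRNA in the precipitates. Its 80368 mimic and 91783 scramble reads made up 35.9% and 36.8% of all reads on the chaperone genes, and its level per length was 1708 and 1951 RPKM, that is, reads scaled by transcript length and library size. The inducible Hsp90aa1 had 1163 and 1291 reads, or 19.0 and 21.1 RPKM, so the level per length of Hsp90ab1 was 90.0 and 92.6 times as high. Of the 50-base stretches of Hsp90aa1 58.5% occur in other transcripts, against 4.49% for Hsp90ab1. Reads aligned to more than one place are outside the gene counts. The level of Hsp90aa1 may therefore be too low and these factors too high, by an amount that was not tested. The log2 ratios of these genes were close, −0.19 (−0.21 to −0.18) for Hsp90ab1 and −0.15 (−0.27 to −0.04) for Hsp90aa1.

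**Figure D4:**
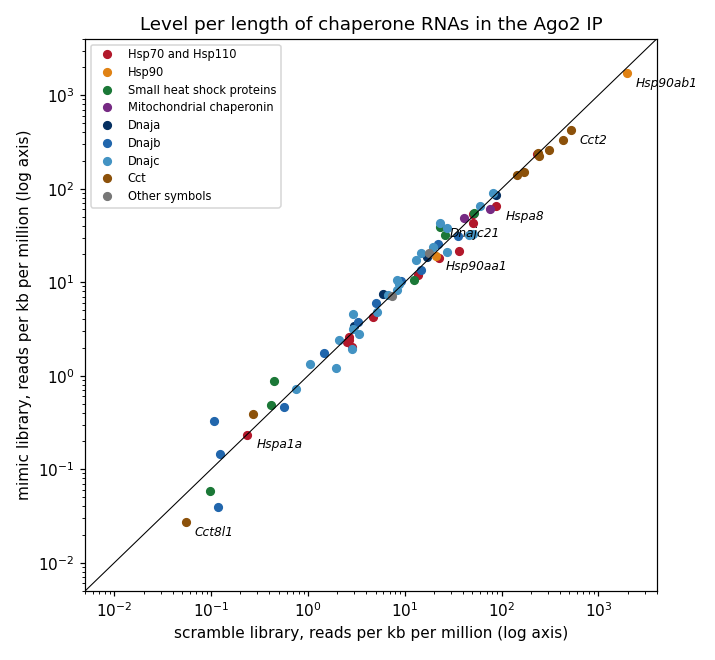
Level per transcript length, in RPKM (reads scaled by transcript length and library size), of each chaperone gene with reads in each library, mimic against scramble on log axes; the line marks equal levels. Hsp90ab1, Cct2, Cct5 and Cct4 hold the top of the range, and the points spread from the line mainly at low levels.

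The CCT ring is built of Tcp1 and the products of Cct2 to Cct8. Cct5 had 11388 mimic and 14775 scramble reads, a log2 ratio of −0.38 (−0.41 to −0.34), Cct2 had 15498 and 18841 (−0.28, interval −0.31 to −0.25) and Cct4 had 11975 and 14150 (−0.24). Cct6a (6842 and 7799, −0.19) and Cct7 (10238 and 10975, −0.10) had smaller ratios, with intervals still below 0. Cct3 (5127 and 5321, −0.05) and Cct8 (10751 and 10533, 0.03) had intervals that included 0. Cct8 and Cct5 had the highest and lowest ratios of the ring, and they differed by 0.41 (0.35 to 0.46). That interval does not allow for the choice of the 2 ends from these same ratios. Tcp1, which is not caught by the symbol rule, had 32813 and 40678 reads and a log2 ratio of −0.31 (−0.33 to −0.29). With it, 7 of 8 ring genes lay below 0 (background 50.1%). Their share of all reads on genes was 0.562% in the mimic and 0.658% in the scramble library. None reached 1.5-fold. Of the 50-base stretches of Tcp1 and Cct6a, 22.2% and 16.8% occur in other transcripts. The testis form Cct6b had 13 and 9 reads (0.53, interval −0.81 to 1.94), and Cct8l1 had 1 and 2.

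In the mitochondrial chaperonin, Hspd1 (Hsp60), the barrel, and Hspe1 (Hsp10), its lid, went opposite ways. Hspd1 had 2770 mimic and 3405 scramble reads (log2 ratio −0.30, interval −0.37 to −0.23), and Hspe1 had 697 and 589 (0.24, interval 0.08 to 0.40), a difference of 0.54 (0.37 to 0.71). With the length and GC trend removed the pair lay on the same side of 0, at −0.35 and −0.21. Each shares 44.8% of its 50-base stretches with other transcripts.

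Hspd1 and Hspe1 are read in opposite directions from a common stretch of chromosome 1 that holds a heat shock element, the binding motif of heat shock factors. This motif was searched as GAANNTTCNNGAA or TTCNNGAANNTTC on either strand, from 250 bases before to 50 bases after each gene's start in RefSeq (GRCm38.p6). It was found in 4 of 63 chaperone genes with a promoter (6.35%) and in 179 of 27025 genes (0.662%). Hspd1 and Hspe1 were counted separately in these shares although their matches lie in the same stretch. Only exact matches were searched, so a gene without one is not shown to lack a heat shock element. A match of each gene is shown because heat shock factors are known to bind this motif, which is in capitals. Hspd1 and Hspe1 each hold a further, overlapping match that is not shown. The stretch printed for Hspd1 and Hspe1 is the same, on opposite strands.
Hspd1, chr1:55088051-55088079, minus strand: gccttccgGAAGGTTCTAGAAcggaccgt
Hspe1, chr1:55088051-55088079, plus strand: acggtccgTTCTAGAACCTTCcggaaggc
Dnajb6, chr5:29735844-29735872, plus strand: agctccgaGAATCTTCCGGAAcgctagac
Hsph1, chr5:149636280-149636308, minus strand: gctgcagaTTCTGGAAAGTTCtcctcagt

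The 4 genes did not share a direction. Besides Hspd1 (−0.30), Hspe1 (0.24) and Hsph1 (−0.73), Dnajb6, a J protein that keeps aggregation-prone proteins soluble, had 206 mimic and 180 scramble reads and a log2 ratio of 0.19 (−0.10 to 0.49).

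Small heat shock proteins were few. Hspb8, which works with Bag3 in selective autophagy, had 1875 mimic and 1753 scramble reads (log2 ratio 0.10, interval 0.0017 to 0.19), and Hspb6 had 818 and 665 (0.30, interval 0.15 to 0.45). Hspb1 (Hsp27) had 178 and 212 reads (−0.25, interval −0.55 to 0.04), and 60.4% of its 50-base stretches occur in other transcripts. Hspb11, which despite its symbol is a protein of the intraflagellar transport complex of cilia, had 441 and 260 reads, a log2 ratio of 0.76 (0.54 to 0.99). Its transcript is the shortest among the tested chaperone genes, at 608 bases, and its ratio after trend removal was 0.28. Hspb11 was counted in the median of the small heat shock proteins, which was not computed without it. Hspb2 (7 and 6), Hspb7 (3 and 5) and Hspb9 (12 and 6) were below the limit of 20 reads, and Hspb3 had 0 in each library, where 3 reads would be 0.161 and 0.16 CPM.

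Dnaja and Dnajb proteins include the J proteins that start the cytosolic Hsp70 cycle. Of the 4 tested Dnaja genes 3 lay above 0, as did 5 of the 8 tested Dnajb genes. Dnaja1 had 778 mimic and 629 scramble reads (log2 ratio 0.31, interval 0.15 to 0.46), and its relative Dnaja2 had more reads, 4702 and 4813, at −0.03 (−0.09 to 0.02). Dnajb1 (Hsp40), the main heat-inducible partner of Hsp70, had 1430 and 1224 reads (0.22, interval 0.11 to 0.34), and the ratio exceeded that of Hsph1, another heat-inducible gene, by 0.95 (0.81 to 1.10). Dnajb5 had 369 and 308 reads (0.26) and Dnajb4 had 1446 and 1636 (−0.18, interval −0.28 to −0.08). None of the tested Dnaja or Dnajb genes reached 1.5-fold (background 18.4% in either direction). Dnajc7, which binds both Hsp70 and Hsp90, had 3884 and 3557 reads (0.13, interval 0.06 to 0.19).

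The Dnajc genes, which share little beyond the J domain, had an SD of 0.42 over 23 tested genes. Past 1.5-fold 2 were higher (8.7%, background 10.3%) and 2 lower (8.7%, background 8.1%). Dnajc21, which helps to recycle a factor in the assembly of the large ribosomal subunit, had 1638 mimic and 896 scramble reads, a log2 ratio of 0.87 (0.75 to 0.99). Dnajc2, the ribosome-bound J protein that works with Hspa14, had 418 and 328 (0.35, interval 0.14 to 0.56). Dnajc17 and Dnajc8, both linked to splicing, had 87 and 55 reads (0.66, interval 0.16 to 1.18) and 1004 and 713 (0.49, interval 0.35 to 0.63). These roles were grouped after the values were seen.

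Dnajc14, a J protein of the endoplasmic reticulum membrane, had 2555 mimic and 3964 scramble reads, a log2 ratio of −0.63 (−0.71 to −0.56), which lay below that of Dnajc21 by a difference with an interval of 1.37 to 1.64. Of its 50-base stretches 25.6% occur in other transcripts, those of Ormdl2 and Sarnp, as do 25.4% of those of Dnajc17, in Zfyve19 among others. Whether reads from these stretches aligned to more than one place was not tested. Dnajc10, a disulfide reductase of the endoplasmic reticulum, had 1574 and 2065 (−0.39). Dnajc12, a partner of aromatic amino acid hydroxylases, had 68 and 111 reads (−0.71, interval −1.16 to −0.26). Just inside the 1.5-fold limit lay Dnajc17, at 1.58-fold, and Dnajc14, at 1.55-fold. Just outside it lay Dnajc16, at 1.48-fold, Cct6b, at 1.44-fold, Hspa1b, at 1.42-fold, and Dnajc13 and Dnajc8, each at 1.41-fold. The interval of Cct6b included 0.

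In vesicle traffic, Dnajc13, which acts on endosomes, had 4066 mimic and 5739 scramble reads (log2 ratio −0.50, interval −0.56 to −0.44). Dnajc5, the cysteine string protein of secretory vesicles, had 2102 and 1605 (0.39, interval 0.29 to 0.48). Both have long transcripts, of 6747 and 6578 bases, and after trend removal they stood at −0.21 and 0.64. Dnajc6 (auxilin) had 2 and 0 reads. Dnajc30, a mitochondrial J protein, had 634 and 455 reads (0.48, interval 0.30 to 0.65).

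Of the 10 chaperone genes known from male germ cells, 5 were tested and none reached 1.5-fold (background 18.4% in either direction). The other members under the limit of 20 reads were Dnajb7 (1 and 3), Dnajb8 (6 and 2), Dnajb13 (7 and 6), Dnajc5b (1 and 0) and Dnajc5g (0 and 2). The remaining symbols are not chaperones of a family: Hspbp1, a nucleotide exchange factor of Hsp70, had 612 and 523 reads (0.23, interval 0.06 to 0.40), and Hspbap1 had 227 and 234 (−0.04).

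The co-chaperones and heat shock factors that work with these families were taken from a list of 28 genes, of which 27 were in the tables and all of those were tested. Of these, 16 lay above 0 and 11 below, with a median log2 ratio of 0.08. By 1.5-fold 4 were higher (background 10.3%) and 0 were lower (background 8.1%). Prefoldin, which hands unfolded actin and tubulin to CCT, held 3 of the higher genes. Pfdn5 had 953 mimic and 385 scramble reads, a log2 ratio of 1.31 (1.13 to 1.48), Pfdn2 had 2181 and 1023 (1.09, interval 0.98 to 1.20) and Pfdn1 had 1118 and 612 (0.87, interval 0.73 to 1.01). Pfdn4 had 281 and 204 (0.46) and Vbp1 had 2440 and 2261 (0.11, interval 0.03 to 0.19). All 5 measured prefoldin genes thus lay above 0 (background 49.9%), while 7 of 8 genes of the ring they serve lay below it (background 50.1%). Pfdn5, the highest prefoldin gene, exceeded Tcp1 by 1.62 (1.45 to 1.79), whereas Vbp1, the lowest, exceeded it by 0.42 (0.33 to 0.51). After trend removal Pfdn5 and Pfdn2 stood at 0.93, Pfdn1 at 0.54, Pfdn4 at 0.14 and Vbp1 at −0.03, so that Pfdn1 no longer passed 1.5-fold. Prefoldin was set apart from the list after its values were seen.

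The remaining higher gene was Ptges3, the Hsp90 co-chaperone p23, with 1080 mimic and 587 scramble reads (log2 ratio 0.88, interval 0.73 to 1.03), which exceeded Hsp90ab1 by 1.07 (0.93 to 1.22). Other Hsp90 partners had smaller ratios: Stip1, which links Hsp70 to Hsp90, had 10019 and 9771 reads (0.04), and Cdc37, which brings kinases to Hsp90, had 3133 and 2875 (0.12). At the low end stood Stub1, the ubiquitin ligase that takes clients of Hsp70 and Hsp90 to degradation, with 949 and 1307 reads (−0.46, interval −0.58 to −0.34), and its ratio after trend removal, −0.75, lay past 1.5-fold. Hsf1, the main heat shock factor, had 1685 and 1346 reads (0.32, interval 0.22 to 0.43), and Hsf2 had 452 and 541 (−0.26, interval −0.44 to −0.08). Of the 50-base stretches of Pfdn5, Pfdn2, Ptges3 and Stub1, 27.0%, 28.8%, 22.2% and 33.0% occur in other transcripts.

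**Figure D5:**
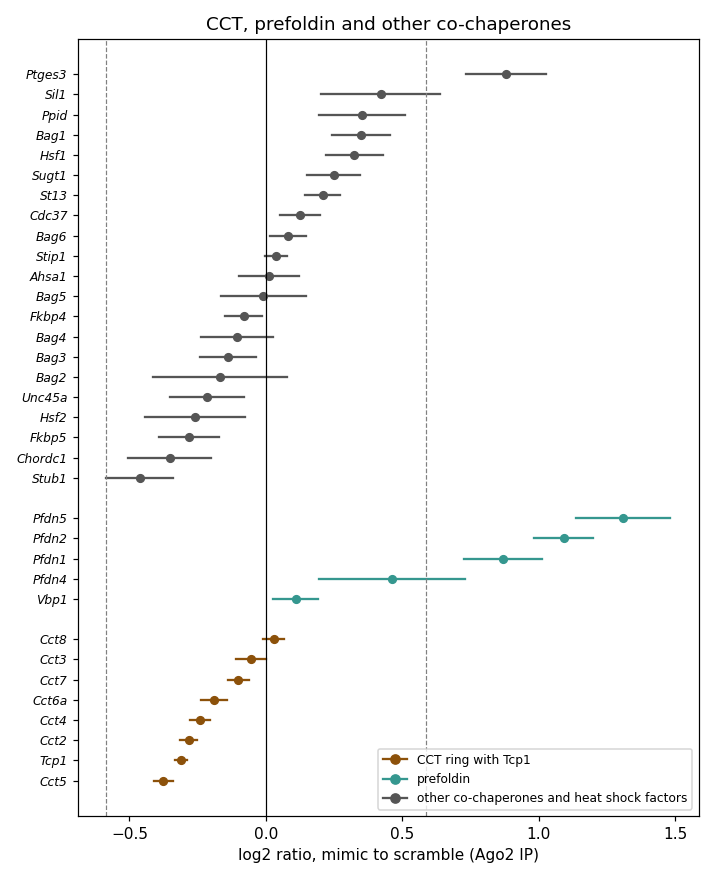
Log2 ratio of mimic to scramble (points) with exact 95% counting intervals (lines) for the CCT ring genes, the prefoldin genes and the other listed co-chaperones and heat shock factors; dashed lines mark 1.5-fold. Pfdn5, Pfdn2, Pfdn1 and Ptges3 lie right of the upper line, and every ring gene but Cct8 lies left of 0.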

How the data were processed

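RNA precipitated with an Ago2 antibody from transfected TM4 cells was sequenced after TruSeq library preparation, with 1 library per group. The deposited values are unnormalised read counts, made by the authors for each gene symbol. The submitters' processing notes name CASAVA 1.8.2, TopHat2 2.0.8b, HTSeq and the build mm9. Strandedness and annotation are not given in the sources used here.

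A gene was tested if its counts in both libraries summed to 20 or more (12186 of 15973 with any count). Libraries were scaled by TMM in edgeR 4.0.16 (R 4.3.3). Log2 ratios of mimic to scramble were computed without a prior count, with exact 95% Clopper-Pearson intervals (scipy 1.17.1). A gene was called at 1.5-fold or more with an interval off 0. With no replicates no test was fitted. Reads without molecular identifiers are not independent molecules, so intervals and floors cover counting error only. The computation was tested on simulated data.

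Transcript lengths, GC content, shared 50-base stretches and miRNA matches came from the GENCODE M21 transcript with the longest coding region (GRCm38), matched by symbol for all 78 chaperone genes and 99.1% of tested genes. Stretches were matched on either strand to any transcript of another gene, genes at the same locus included. A shared stretch thus need not mean a copy elsewhere in the genome. The trend with length and GC was a quadratic regression. Promoters came from RefSeq (63 of the chaperone genes). Coordinates belong to GRCm38, not to the build of the counts.

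The text names, per family, the 2 genes with most reads, genes past the limit and the highest and lowest ratios, with others for their role. Genes and lists were chosen with earlier results of these data known. The same holds for the pairs of genes set side by side, whose intervals do not allow for that choice. Alternatives were total counts, DESeq2 1.42.0 size factors, no count filter, a 200-count filter, a 2-fold limit, removal of the trend, and leaving out Hspbap1 and Hspbp1. Leaving out genes with over 10% shared stretches was added after the data were seen.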

Additional observations from a re-analysis of the deposited data

Results flagged for a closer look

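The share of alignments to more than one place was 39.8% of entries (mimic) against 35.6% (scramble), and reads overlapping more than one gene made up 0.653% and 0.585%. These entries are outside the gene counts and were higher in the mimic library. They bear on Hspa8, Hsp90aa1, Hspa1a, Hspa1b, Hspa1l, Hspb1, Dnaja4, Hspd1 and Hspe1, which share between 44.8% and 74.8% of their 50-base stretches with other transcripts. Their part in the ratios of these genes was not tested.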

How the results depend on the processing

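Total counts and DESeq2 size factors changed neither the counts of genes past 1.5-fold nor the family medians beyond their spread. At a 2-fold limit 0 chaperone genes were higher and 0 lower. The share of all tested genes at that limit is not given here, so these counts cannot be read as a trait of chaperone genes. With the length and GC trend removed, the median moved to −0.051 for small heat shock proteins, −0.279 for the mitochondrial chaperonin and −0.220 for CCT, and the Dnajb and Dnajc medians fell to 0.096 and 0.036. The CCT median was −0.19 without a count filter, −0.19 at 200 counts or more, and −0.10 without genes that share sequence, where the Dnaja median was 0.049. For 30 named genes, 14 of 90 alternative values moved, all under trend removal. Leaving out a library was not possible with 1 per group. No paired analysis was possible because each group had 1 library.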

Other observations

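The endoplasmic reticulum chaperones that were left out stood as follows. Hspa5 (BiP), the Hsp70 of that compartment, had 2779 mimic and 2395 scramble reads (log2 ratio 0.21), Hsp90b1 had 3577 and 3406 (0.07), Dnajb9 had 627 and 572 (0.13) and Dnajb11 had 452 and 395 (0.19). Dnajc3, which inhibits the stress kinase PERK, had 1139 and 1650 (−0.54).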
